A study of Homo sapiens with 32 samples.

Results

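What the KRAB domain added to binding alone was read from 8 RNA-seq libraries of the 32 in the series, the 4 libraries of the repressive LNCaP line under tamoxifen against the 4 of the neutral line under the same treatment, chosen by their labels. LNCaP is a human prostate cancer cell line that responds to androgen. Both lines were infected with a lentivirus, selected with blasticidin and kept as stable lines, and each carried a MACC, a fusion of a DNA binding domain directed at androgen response elements to ERT2, a mutant estrogen receptor ligand binding domain, followed by 3X FLAG. The neutral MACC (3X) ended there, and the repressive MACC (KRAB) also held the KRAB domain. All 8 cultures received 2.5 µM tamoxifen for 48 h, and 8 further libraries of the same 2 lines under vehicle (ethanol) served as the uninduced comparison. The parental line and the activating MACC (VP64) line, with the same treatments, supply 16 further libraries.

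Androgen response elements are short palindromes through which androgen acts on genes, and those near them include the classical markers of the prostate luminal cell. ERT2 holds a fusion in the cytoplasm until tamoxifen binds, after which it can reach the nucleus. KRAB is the repression domain of many zinc finger proteins and recruits TRIM28, which brings in the H3K9 methyltransferase SETDB1 and the deacetylases of the NuRD complex. Because each construct sits in its own stable line, KRAB and any other difference between the lines cannot be told apart under tamoxifen alone. The vehicle libraries are therefore given beside most main results.

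The libraries were shallow, with 565168 to 1164808 assigned counts, so genes with few counts carried wide errors. Neutral replicate 1 stood apart. It had the largest total, and a pseudogene on the X chromosome, CTD-2328D6.1, took 18.8% of its counts against 6.25% to 8.22% in the other neutral libraries and 7.30% to 13.4% in the repressive ones. Of the counts on annotated genes, 77.1% fell on genes that share exon sequence with a gene on the opposite strand, although such genes are 23% of the annotated table. The kit marks strand, but the sources used here do not name the strand setting. A feature with an exonic partner on the other strand may therefore stand for that partner, and most such partners are named below. Levels are counts relative to the TMM-scaled library total (CPM), given as mean ± SD (n = 4). Gene positions are those of GRCh37. Fold changes are repressive over neutral on the log2 scale, with adjusted p-values from edgeR's quasi-likelihood test. The cells carried the LNCaP markers in both groups, since all 9 on the list had counts, KLK3, KLK2, KRT8, KRT18, FOLH1, HOXB13 and FOXA1 among them. Fibroblast markers summed to at most 2 counts in any library, endothelial markers to 4 to 20 and immune markers to 4 to 11, with 7 of 8 fibroblast and 8 of 9 immune markers at 0 in both groups.

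Sequence belonging to the constructs checked the labels. ZNF10, the zinc finger gene whose KRAB domain is commonly used in such fusions (chr12:133707161-133736051, plus strand), had 0 counts in all 4 neutral libraries and 17, 14, 16 and 11 counts in the repressive ones. With 3 counts over the neutral group as a floor, ZNF10 was at least 20.5-fold higher in repressive cells, and its adjusted p was 4.03e-05. The same held under vehicle, where the repressive libraries held 11 to 20 counts and the neutral ones 0. ESR1, which supplies ERT2, stood at 128 ± 16 in the neutral and 166 ± 26.2 in the repressive line, a difference that did not pass the test (log2 fold change 0.38 ± 0.135 (SE), adjusted p = 0.16). Its level in the parental line was 0.772 ± 1.54. The ESR1 groups did not overlap, which held for 9.23% of all tested features. The part of construct level in the differences below was not tested.

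Under tamoxifen 132 of 3985 tested features differed (3.31%), with 51 higher in the repressive line (1.28%) and 81 lower (2.03%). The lower features moved further. Their median log2 fold change was -0.94, with 38 past 1 on the log2 scale, while the median of the higher ones was 0.48 and 10 were past 1. The median of all tested features was 0.0039. The groups did not overlap in 368 of the 3985 (9.23%). Separate groups were a condition for naming the highest and lowest features below, so their separation is a description and no further result. Of the 132, 106 overlapped exons on the opposite strand, 21 did not, and 5 were not found in the annotation used here. In these bulk samples fewer cells of a type and less RNA per cell cannot be told apart. Without neutral replicate 1, 138 features were called, 47 higher and 91 lower, and 112 of these were among the 132.

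**Figure D1:**
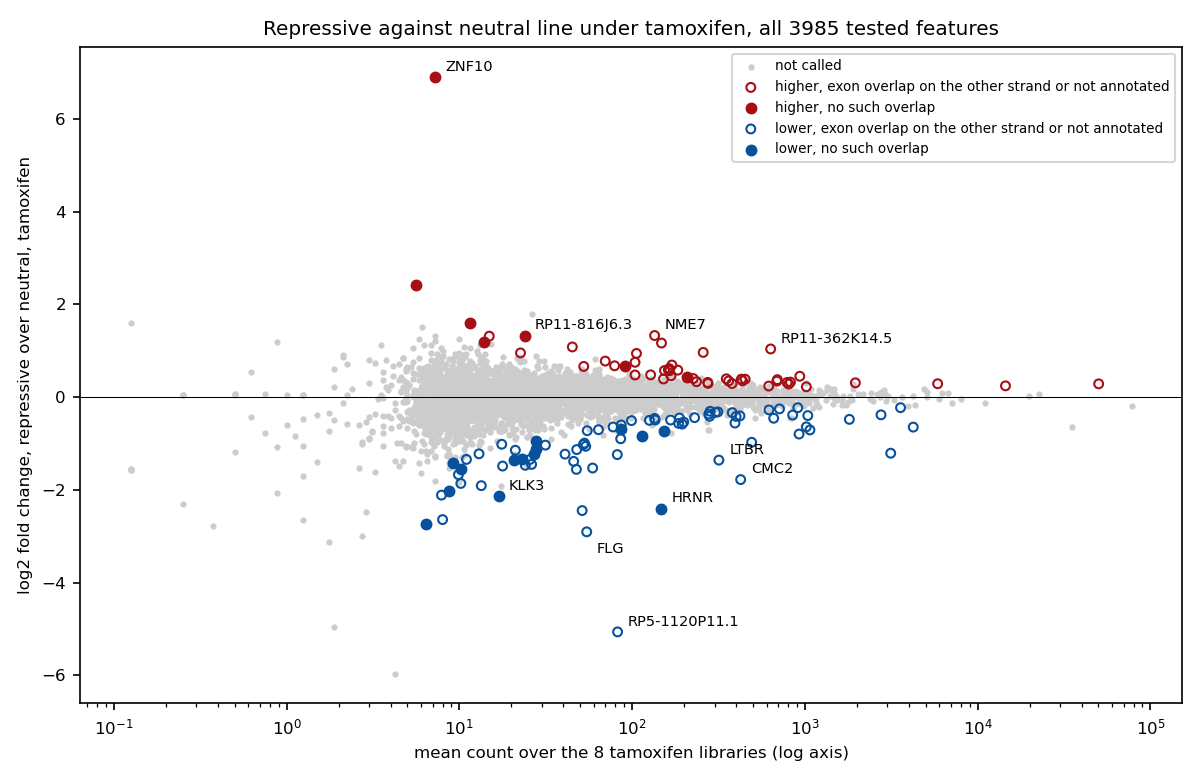
Each point is 1 of 3985 tested features, with its mean count over the 8 tamoxifen libraries on a log axis and its log2 fold change of repressive over neutral. Coloured points passed an adjusted p of 0.05 (51 higher, red; 81 lower, blue), and filled ones lack exon overlap on the other strand; RP5-1120P11.1, FLG and HRNR are among the lowest.

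The strongest decrease was in RP5-1120P11.1, a long noncoding RNA that the annotation names SCIRT (chr6:43899309-44042392, minus strand). The 4 neutral libraries held 187, 174, 219 and 342 CPM, and the repressive libraries had 3.86, 6.96, 12.2 and 4.52. The groups were widely separated, at 230.4 ± 76.4 against 6.89 ± 3.79, and every repressive library lay below every neutral one (log2 fold change -5.06 ± 0.33 (SE), adjusted p = 5.72e-07). The lines already differed under vehicle, by -0.97 on the log2 scale (138 ± 24.5 against 68.7 ± 18.7; adjusted p = 0.000109). The difference was larger under tamoxifen (interaction of line and treatment, adjusted p = 6.43e-06). On the other strand, exons overlap 727 of its exonic bases, and those of an unnamed gene overlap 291.

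FLG and HRNR, which encode filaggrin and hornerin, S100-fused proteins of the epidermal barrier, fell together. They are neighbours in the epidermal differentiation complex on chromosome 1, HRNR at chr1:152184552-152196669, minus strand and FLG at chr1:152274641-152297715, minus strand. HRNR had 352, 176, 245 and 225 counts in the neutral libraries and 34, 29, 58 and 56 in the repressive ones. In CPM this was 349 ± 33.6 against 66.8 ± 22.9, with no overlap (log2 fold change -2.40 ± 0.173 (SE), adjusted p = 3.71e-07). FLG had 117, 78, 101 and 92 counts against 5, 8, 23 and 13 (log2 fold change -2.90 ± 0.283 (SE), adjusted p = 9.02e-06). Neither gene passed the test under vehicle, where the log2 fold changes were 0.28 and 0.38, and the interaction was called for both (adjusted p = 3.26e-07 and 2.29e-07). FLG shares 1587 exonic bases with FLG-AS1 on the opposite strand, and HRNR, without exon overlap, lies within the span of the same RNA. FLG-AS1 had 0 counts in all 8 libraries. Which strand the reads came from was not tested, so the counts of FLG and HRNR may stand for FLG-AS1. Of a list of 19 genes of the complex these 2 passed the filter, and 1 further feature, opposite a list gene, was not called (-0.56).

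Among genes induced by androgen, KLK3 and ELOVL5 fell. KLK3 encodes prostate-specific antigen, a serine protease used as a marker of androgen signalling (chr19:51358171-51364020, plus strand). It had 33, 20, 27 and 31 counts in the neutral and 10, 5, 6 and 3 in the repressive libraries. In CPM this was 39.6 ± 6.72 against 8.81 ± 3.42, with the lowest neutral library above the highest repressive one (log2 fold change -2.13 ± 0.305 (SE), adjusted p = 0.000218). Under vehicle the difference was -0.41 and not called, and the interaction was called (adjusted p = 0.0188). Leaving out neutral replicate 1 gave -2.19 (adjusted p = 0.000437).

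The KLK3 start carries a match to the core of the response element, shown because KLK3 is the best known of the genes that fell. The stretch lies 170 bases before the RefSeq start (GRCh38.p14, chr19:50854738-50854766, plus strand), and the capitals mark the 6-base core AGAACA.
KLK3: taattgcAGAACAgcaagtgctagctctc
Counted from 1 at the first base of the core, the 15-base site differs from the full palindrome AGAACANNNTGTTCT by T10A and T13G, written as the palindrome's base, position and the base found.

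ELOVL5, a fatty acid elongase (chr6:53132196-53213977, minus strand), had only 23, 10, 13 and 9 counts against 7, 4, 4 and 4 (log2 fold change -1.43 ± 0.362 (SE), adjusted p = 0.0307). Its call was lost in 6 of the 8 fits that left out 1 library and with DESeq2's test (adjusted p = 0.162).

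Other androgen targets were not called. FKBP5, a co-chaperone of steroid receptors, had 9, 8, 1 and 2 counts in the neutral libraries and 1, 1, 1 and 0 in the repressive ones. The 3 counts in the repressive group against 20 gave a ratio of 0.159, with a 95% exact interval from counting error of 0.0302 to 0.536, and edgeR's adjusted p was 0.122. TMPRSS2, an androgen-regulated protease, had 7, 3, 3 and 9 counts against 3, 1, 2 and 3 and did not pass the filter. The kallikreins KLK2 and KLK4 had log2 fold changes of -0.91 (adjusted p = 0.319) and -1.29 (adjusted p = 0.0603). KLK4 did not overlap between the groups, which held for 9.23% of all tested features, and KLK2 did.

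Of 83 androgen response genes, 27 were tested under their own symbol. None was higher, 3 were lower and 24 did not pass the test, with a median log2 fold change of -0.32 beside 0.0039 over all features. This median was -0.12 without neutral replicate 4, -0.21 without repressive replicate 4 and -0.15 when features were filtered over the fitted groups alone. KLK3 and ELOVL5 are among the 3. Read through the other strand, 14 features overlapped exons of 13 list genes, and 6 of these were lower, none higher, with a median of -0.37. They were RP11-326A19.5 opposite ABHD2, RP11-66B24.4 opposite ALDH1A3, the coding gene CMC2 and a noncoding feature opposite CENPN, DOPEY1 opposite PGM3 and CTD-2636A23.2 opposite HMGCS1. CENPN under its own symbol had -0.74 and was not called (adjusted p = 0.115). Over all features 2.03% were lower, and the counts for these lists are a description with no test. The list holds lipid and protein handling genes beside the classical targets, and the members read on the other strand include a retinaldehyde dehydrogenase (ALDH1A3), a lipase (ABHD2) and the cholesterol synthesis enzyme HMGCS1. None of these 14 was called under vehicle, and the 6 that were lower were also called in the interaction. Of the 27 read by symbol, the desaturase genes FADS1 (-0.52, adjusted p = 0.000109) and SCD (-1.23, adjusted p = 0.0481) were lower under vehicle, and 1, KLK3, was called in the interaction, while ELOVL5 was not (adjusted p = 0.189).

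The most abundant of these features gave tight values. RP11-326A19.5 lies on chr15 at 89744322-89744999, minus strand, and all of its 678 exonic bases overlap ABHD2. Neutral cells had 6473, 7123, 7485 and 8996 CPM, and the repressive libraries had 4658, 4626, 5129 and 4952. The lowest neutral library was above the highest repressive one (log2 fold change -0.65 ± 0.0794 (SE), adjusted p = 0.000263). RP11-66B24.4, annotated as ALDH1A3-AS1, fell from 1811 ± 166 to 1169 ± 48 (log2 fold change -0.64 ± 0.0651 (SE), adjusted p = 2.18e-06). The vehicle differences of RP11-326A19.5 and RP11-66B24.4 were -0.19 (adjusted p = 0.0677) and -0.20 (adjusted p = 0.0763), in the same direction and not called. Under its own symbol ABHD2 stood at 221 ± 22.7 against 237 ± 8.89 (log2 fold change 0.09 ± 0.101 (SE), adjusted p = 0.777) and did not pass the test, and ALDH1A3 had 0 to 3 counts per library. Which strand the reads came from was not tested.

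Of 25 luminal genes 12 were tested, with 2 lower, KLK3 among them, none higher and a median of -0.29. Of the 12, 11 had negative log2 fold changes. The exception was HOXB13, the posterior homeobox factor of the prostate, at 51.1 ± 11.4 against 73.3 ± 10.8 (log2 fold change 0.52 ± 0.191 (SE), adjusted p = 0.184). The keratin KRT8 (1321 ± 189 against 1173 ± 136, log2 fold change -0.19 ± 0.115 (SE), adjusted p = 0.557) and the pioneer factor FOXA1 (25.3 ± 7.3 against 26.2 ± 3.14, log2 fold change -0.0038 ± 0.256 (SE), adjusted p = 0.999) did not pass the test. Of the 18 basal genes 2 passed the filter, KRT5 and KRT6A, and both had 0 counts in all 8 libraries.

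**Figure D2:**
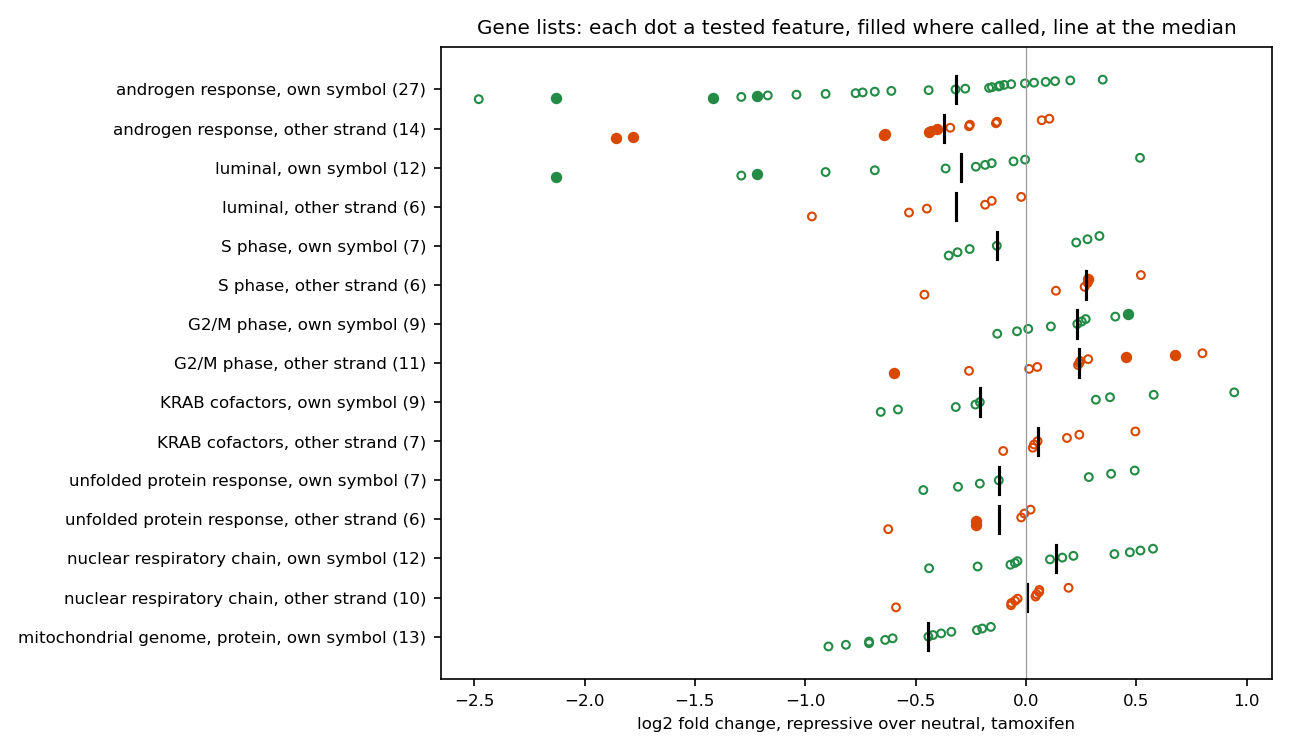
Each dot is a tested feature, placed by its log2 fold change of repressive over neutral under tamoxifen, for 8 gene lists read by own symbol (green) and, where 3 or more features allow, by overlap with a list gene's exons on the other strand (orange). Filled dots passed the adjusted p of 0.05 and black lines are medians; the androgen response medians were -0.32 (-0.12 without neutral replicate 4) and -0.37, and all 13 mitochondrial genes lie below 0.

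CMC2, LTBR and CCDC152 were abundant features that fell and that have a partner on the other strand. CMC2 takes part in cytochrome c oxidase assembly and overlaps CENPN, a centromere protein, by 240 bases (chr16:81000345-81053875, minus strand). The neutral values were 1119, 1023, 880.4 and 681 CPM, and the repressive libraries had 224, 240.2, 258 and 372. All neutral libraries were above all repressive ones (log2 fold change -1.78 ± 0.222 (SE), adjusted p = 0.00575), although both groups were spread. LTBR encodes the lymphotoxin beta receptor and shares 422 exonic bases with SCNN1A, the alpha subunit of the epithelial sodium channel (chr12:6484211-6500737, plus strand). Levels in neutral cells were 614, 699, 629.9 and 692 CPM, and the repressive libraries had 264, 244, 266 and 262. The repressive libraries lay close together and far below the neutral ones (log2 fold change -1.36 ± 0.0796 (SE), adjusted p = 1.2e-09). The vehicle differences of CMC2 and LTBR were -0.076 and -0.15, neither called. The interaction was called for CMC2 (adjusted p = 0.00166) and for LTBR (adjusted p = 2.29e-07).

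Both of the next features overlap exons of SELENOP, a secreted selenium carrier, on the other strand, and which strand the reads came from was not tested. CTD-2325A15.5, whose 604 exonic bases all overlap SELENOP (chr5:42806496-42807099, plus strand), stood at 159.5, 174, 172 and 157 CPM in the neutral libraries. In the repressive ones it stood at 86.2, 66.1, 58 and 70.8, below all of the former (log2 fold change -1.24 ± 0.144 (SE), adjusted p = 1.44e-05). Its vehicle difference was -0.19 and not called. CCDC152, which overlaps SELENOP by 1452 bases and was named after its values were seen, fell from 6343 ± 433 to 2763 ± 72.7 (log2 fold change -1.21 ± 0.0573 (SE), adjusted p = 5.11e-11). The lines already differed in CCDC152 under vehicle (-0.32, adjusted p = 0.000711), and the interaction was called as well (adjusted p = 2.36e-08). SELENOP itself, listed as SEPP1, had at most 5 counts in any library.

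The next 3 called features are neighbours on chromosome 18. RP11-1151B14.4 lies opposite ALPK2, an alpha kinase (chr18:56202647-56205784, plus strand), and had 94, 73, 82 and 100 counts in the neutral and 23, 10, 18 and 11 in the repressive libraries (log2 fold change -2.44 ± 0.217 (SE), adjusted p = 3.71e-07). Its neighbours RP11-1151B14.2 (chr18:56083997-56084860) and RP11-108P20.3 (chr18:56419411-56421130), named after their values were seen, had log2 fold changes of -2.73 (adjusted p = 0.00345) and -1.56 (adjusted p = 5.14e-05). All 625 exonic bases of RP11-108P20.3 overlap MALT1 on the other strand, and RP11-1151B14.2 has no exon overlap. The vehicle differences of RP11-1151B14.4, RP11-1151B14.2 and RP11-108P20.3 were -0.29, -0.071 and -0.22, none called. CT62, a noncoding RNA of the cancer/testis class (chr15:71402583-71407833, minus strand), stood at 127 ± 9.31 against 44 ± 5.45 (log2 fold change -1.53 ± 0.163 (SE), adjusted p = 4.38e-06), and at 135 ± 16 and 130.0 ± 11.7 under vehicle (log2 fold change -0.037, adjusted p = 0.943). CT62 shares 24 exonic bases with THSD4 on the other strand.

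Lower features without exon overlap also included NFRKB, CKB, GLYATL1P2 and BX842568.2. NFRKB, a subunit of the INO80 remodelling complex, stood at 48.4 ± 12.8 against 19.3 ± 3.45 (log2 fold change -1.32 ± 0.256 (SE), adjusted p = 0.00357). Its repressive level was close to that of vehicle (20.6 ± 2.56), and the neutral level was above its own vehicle level (18.7 ± 6.44). BX842568.2, annotated as TFDP1P2, a processed pseudogene of the E2F partner TFDP1, showed the same order, with 209 ± 23.1 in neutral and 117 ± 18.3 in repressive cells under tamoxifen (log2 fold change -0.85 ± 0.126 (SE), adjusted p = 0.000288) and 88.3 ± 7.99 and 88.1 ± 7.33 under vehicle. CKB, the brain-type creatine kinase, stood at 54.3 ± 9.17 against 25.1 ± 4.87 (log2 fold change -1.11 ± 0.225 (SE), adjusted p = 0.00516). Under vehicle the CKB difference was -0.34 and not called, and its interaction was not called (adjusted p = 0.201). GLYATL1P2, a pseudogene of the glycine acyltransferases, stood at 43.4 ± 11.2 against 17 ± 8.23 (log2 fold change -1.35 ± 0.302 (SE), adjusted p = 0.0122), a call lost without neutral replicate 3, repressive replicate 1 or repressive replicate 2. Counts of both pseudogenes can share reads with their parent genes and are uncertain.

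**Figure D3:**
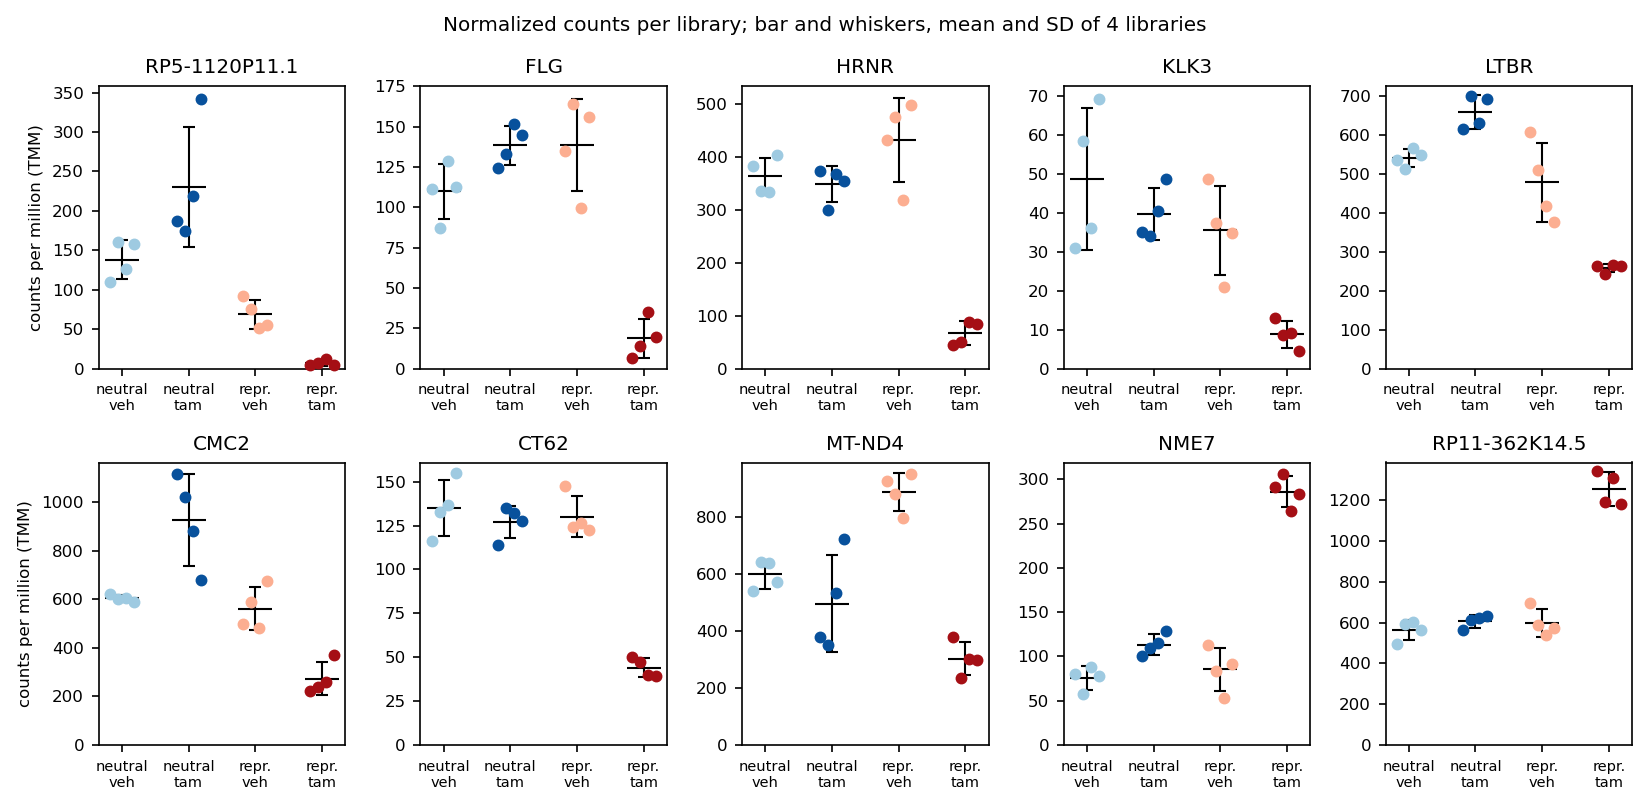
CPM after TMM scaling in each of the 16 libraries of the neutral and repressive (repr.) lines under vehicle (veh) and tamoxifen (tam), for 10 named features; bars and whiskers are mean and SD (n = 4). The repressive tamoxifen libraries lie below all neutral tamoxifen ones in 7 panels, overlap them for MT-ND4, and lie above them for NME7 and RP11-362K14.5.

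Among the 51 higher features, NME7 and RP11-362K14.5 were well separated between the groups. NME7, a nucleoside diphosphate kinase family member (chr1:169101769-169337186, minus strand), overlaps 287 bases of ATP1B1, the beta subunit of the sodium pump. Under 3X alone it had 100, 109, 115 and 129 CPM, and the repressive libraries had 291, 306, 264 and 283. The groups were far apart (log2 fold change 1.33 ± 0.114 (SE), adjusted p = 2.91e-07), while under vehicle they stood at 75.9 ± 13.3 and 85.3 ± 24.5 (interaction adjusted p = 0.000944). ATP1B1 itself had 7, 3, 2 and 7 counts against 12, 4, 9 and 11 and a log2 fold change of 0.96 (adjusted p = 0.317). Of 3 features opposite sodium pump genes, NME7 was the only called one, and the other 2 had -0.34 and 0.13.

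RP11-362K14.5 is a noncoding feature inside the zinc finger gene MYNN on the other strand (chr3:169494980-169498122, minus strand). Its neutral libraries stood at 561, 611, 622 and 633 CPM, and the repressive libraries had 1342, 1189, 1310.1 and 1181. The groups did not overlap (log2 fold change 1.04 ± 0.0656 (SE), adjusted p = 2.91e-09, interaction adjusted p = 2.1e-07). The vehicle difference was 0.11 and not called. RP11-816J6.3, a noncoding RNA just beside it without exon overlap (chr3:169487437-169489831), had 16, 12, 19 and 9 counts against 37, 26, 33 and 39 and rose as well (log2 fold change 1.33 ± 0.242 (SE), adjusted p = 0.00233).

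ST7-AS1, antisense to the candidate tumour suppressor ST7 (chr7:116592500-116594388, minus strand), stood at 133 ± 17.1 against 302 ± 12.5 (log2 fold change 1.17 ± 0.105 (SE), adjusted p = 3.93e-07). Its vehicle difference was 0.21 and not called, and its interaction was called (adjusted p = 0.000237). H2AFY encodes the histone variant macroH2A1 and shares 4706 exonic bases with PITX1-AS1 (chr5:134670071-134735604, minus strand), and it stood at 233, 222, 262 and 302 in the neutral and 548, 468, 533 and 452 in the repressive libraries. Both groups were separate (log2 fold change 0.97 ± 0.0978 (SE), adjusted p = 2.18e-06), and the lines did not differ by the test under vehicle (0.15, adjusted p = 0.568). UTS2, the urotensin 2 peptide gene opposite the clock gene PER3, rose from 105 ± 5.76 to 204 ± 27.1 (log2 fold change 0.94 ± 0.122 (SE), adjusted p = 6.1e-05), but it was also higher under vehicle (0.49, adjusted p = 0.0287) and its interaction was not called. RP11-344B2.2 opposite GAREM1, CLVS1 opposite ASPH and the histone gene HIST2H2AA3 had log2 fold changes of 0.78 (adjusted p = 0.00488), 0.75 (adjusted p = 0.00201) and 0.69 (adjusted p = 0.0034). Under vehicle they had -0.20, 0.16 and 0.24, none called. The interaction was called for RP11-344B2.2 (adjusted p = 0.00678), but not for CLVS1 (adjusted p = 0.069) or HIST2H2AA3 (adjusted p = 0.238). HIST2H2AA3 has a near-identical copy, HIST2H2AA4, so its value is uncertain.

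Without exon overlap, 3 features met the rule for naming, RP11-816J6.3, TEX2 and PTMS. TEX2, a lipid-binding protein of the endoplasmic reticulum, was higher in the repressive line, at 103 ± 8.87 against 163 ± 20.5 (log2 fold change 0.66 ± 0.133 (SE), adjusted p = 0.00488), and its repressive level did not exceed that of vehicle (173 ± 11.7). Under vehicle the TEX2 difference was 0.40 (adjusted p = 0.0578), and its interaction was not called (adjusted p = 0.538). PTMS, the acidic nuclear protein parathymosin, stood at 255 ± 6.67 against 345 ± 61.2 (log2 fold change 0.43 ± 0.113 (SE), adjusted p = 0.0432), a call lost without any 1 of 7 of the 8 libraries, repressive replicate 3 being the exception, and with DESeq2's test (adjusted p = 0.114).

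Of 55 genes of the G2 and M phases, 9 were tested under their own symbol, and NCAPD2, a condensin subunit, was the 1 that rose (207 ± 13.4 against 286 ± 26.8, log2 fold change 0.46 ± 0.0974 (SE), adjusted p = 0.00733). None fell and the median was 0.23. Over all features 1.28% were higher and 2.03% lower, the share beside which these and the following list counts stand as a description. NCAPD2 overlaps MRPL51, a mitochondrial ribosomal protein gene, by 383 bases. Of 11 features opposite genes of this list, EXOSC9 opposite cyclin A2 (CCNA2) and TRIM59 opposite the condensin subunit SMC4 rose, and FAM166A opposite the tubulin gene TUBB4B fell by 0.60 on the log2 scale (adjusted p = 0.047). TRIM59 stood at 1050.5, 1110.4, 1234 and 1226 in the neutral and 1639.5, 1666, 1580.4 and 1468 in the repressive libraries, with no overlap (log2 fold change 0.45 ± 0.0661 (SE), adjusted p = 0.000263), and part of this was present under vehicle (0.25, adjusted p = 0.0143). EXOSC9, an exosome subunit, stood at 88.9 ± 5.9 against 143 ± 11.2 (log2 fold change 0.68 ± 0.13 (SE), adjusted p = 0.00345). Under vehicle the EXOSC9 difference was 0.24 and not called, and its interaction was not called (adjusted p = 0.208). CCNA2 and SMC4 under their own symbols had 0.23 (adjusted p = 0.798) and -0.04 (adjusted p = 0.978), and the proliferation marker MKI67 had 0.25 (adjusted p = 0.856). Of the S phase list, 0 of 7 features read by symbol and 1 of 6 read on the other strand were called, the latter being ENOSF1 opposite thymidylate synthase (TYMS), which rose by 0.28 (adjusted p = 0.0277).

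Mitochondrially encoded genes did not pass the test under tamoxifen, but separated the lines under vehicle. All 13 protein genes had negative log2 fold changes, from -0.90 to -0.16 with a median of -0.44, and 0 of 13 were called by edgeR, with 8 at an unadjusted p under 0.05 and 1 called by DESeq2. The median was -0.26 without neutral replicate 4 and -0.60 without neutral replicate 2. MT-ND4, a subunit of complex I (chrM:10760-12137, plus strand), stood at 379, 351, 534 and 726 in the neutral and 378, 237, 301 and 298 in the repressive libraries. The groups overlapped, and the neutral libraries were spread (log2 fold change -0.71 ± 0.259 (SE), adjusted p = 0.266), and DESeq2's test gave an adjusted p of 0.0231. Without neutral replicate 4, its highest library, the log2 fold change was -0.47 (adjusted p = 0.173). MT-ND6, which lies on the minus strand, stood at 6638 ± 173 in neutral and 5980 ± 474 in repressive cells, far above MT-ND4. Which strand the mitochondrial reads came from was not tested, so the levels of these genes' own RNA are uncertain. Under vehicle 11 of the 13 were higher in the repressive line, with a median of 0.60, and the interaction was called for 9, all negative. The share of counts on mitochondrial features was 0.825% to 1.29% in neutral and 0.716% to 0.994% in repressive cells under tamoxifen, against 0.857% to 1.04% and 1.36% to 1.53% under vehicle. Of 52 nuclear genes of the respiratory chain, 0 of 12 tested by symbol and 0 of 10 read on the other strand were called by edgeR, with 0 at an unadjusted p under 0.05 and 0 called by DESeq2 by symbol and 0 at an unadjusted p under 0.05 and 0 called by DESeq2 on the other strand. Their medians were 0.14 and 0.0029.

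No tested gene of the machinery that KRAB recruits passed the test. Of 25 cofactor genes, 0 of 9 read by symbol and 0 of 7 read on the other strand were called by edgeR, with 1 at an unadjusted p under 0.05 and 0 called by DESeq2 by symbol and 2 at an unadjusted p under 0.05 and 0 called by DESeq2 on the other strand. Log2 fold changes by symbol ran from -0.66 to 0.94. In the lists that follow, the share of all features called was 1.28% higher and 2.03% lower, and the lists were not tested against it. Among p53 targets, 2 of 5 features on the other strand rose, those opposite MDM2 (0.35, adjusted p = 0.00232) and SESN1 (0.62, adjusted p = 0.00208), with 0 of 4 called by symbol. Of the unfolded protein response list, 2 of 6 on the other strand fell, opposite PDIA6 (-0.23, adjusted p = 0.0142) and HYOU1 (-0.23, adjusted p = 0.0227), and 0 of 7 by symbol. Of the sterol synthesis list, 1 of 8 on the other strand fell, the feature opposite HMGCS1 already named, and 0 of 3 by symbol. The EMT list (0 of 3 by symbol and 0 of 5 on the other strand), the estrogen response list (0 of 1 and 0 of 3), the interferon response list (0 of 2 and 0 of 3), the glutathione S-transferases (0 of 2 and 0 of 1) and the neuroendocrine list (0 of 1 by symbol) gave no call by edgeR. Over these 5 lists, 5 features had an unadjusted p under 0.05 and DESeq2 called 0. At an unadjusted p under 0.05, 579 of all 3985 features differed.

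The vehicle libraries give the same contrast without tamoxifen. Under vehicle 93 of 3985 features differed (2.33%), and 17 of the 132 were among them, which is 12.9% of the tamoxifen calls and 18.3% of the vehicle calls. Of these 17, 14 had the same direction in both, such as ZNF10, UFSP2 opposite ANKRD37 (-1.13 under tamoxifen, -0.83 under vehicle) and MMP24-AS1 (-1.01 and -1.11), and 3 changed direction, among them a noncoding feature opposite the antiproliferative gene BTG1 (0.58 and -0.36). The median size of the log2 fold change over the 132 was 0.67 under tamoxifen and 0.158 under vehicle. The 132 were chosen by their tamoxifen values, which favours a larger median there. These medians therefore do not measure how much of the contrast came with tamoxifen. The interaction was called for 135 of all features (3.39%) and for 76 of the 132, which share the tamoxifen libraries with it.

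**Figure D4:**
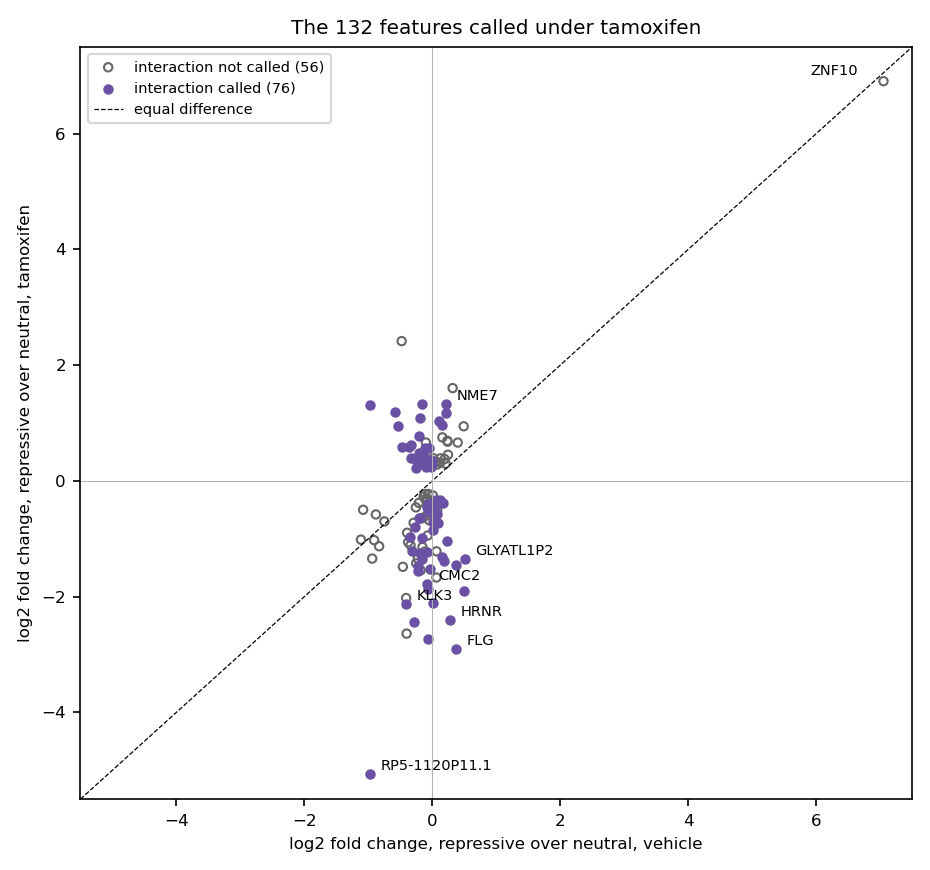
The 132 features called under tamoxifen, by their log2 fold change of repressive over neutral under vehicle (horizontal) and tamoxifen (vertical). Most lie near 0 on the vehicle axis, ZNF10 lies close to the dashed line of equal difference, and filled points are the 76 whose interaction of line and treatment was called.

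Which line moved was described from the group means plus 1 CPM, with a change of 1.5-fold from vehicle in the direction of the contrast as the mark. Among the 81 lower features, the repressive line alone had fallen in 32, the neutral line alone had risen in 10, both had moved in 3 and neither in 36. Among the 51 higher ones, the repressive line alone had risen in 20, the neutral line alone had fallen in 1, both had moved in 2 and neither in 28. HRNR, FLG, KLK3 and NME7 are of the kind in which the repressive line moved, and NFRKB and BX842568.2 of the kind in which the neutral line moved.

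**Figure D5:**
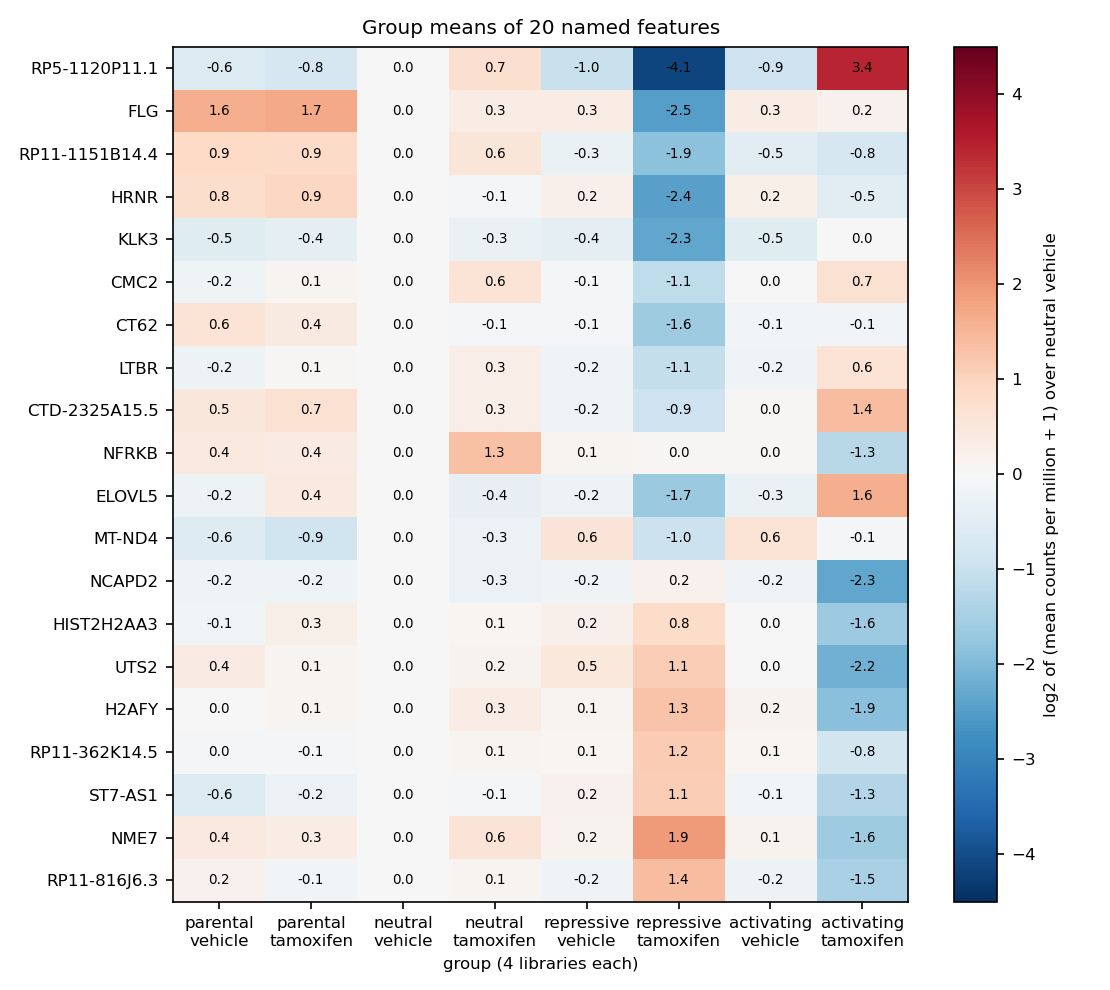
Group means (n = 4) of 20 named features as log2 of CPM plus 1, relative to the neutral line under vehicle, in all 8 groups. Most features depart from 0 in the repressive line under tamoxifen, in blue for those that fell and red for those that rose.

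The other 2 lines place these levels. RP5-1120P11.1 stood at 80.8 ± 26.5 in parental and 1481 ± 179 in activating cells under tamoxifen, so that the order of the means was repressive, parental, neutral and activating. FKBP5 reached 130.0 ± 17.1 in the activating line, against 1.14 ± 0.781 in the repressive one. KLK3 was at 36.6 ± 7.71 in parental and 48.6 ± 7.67 in activating cells. The lowest parental library was at 30.9 and the highest repressive one at 12.9. H2AFY, at 500.3 ± 47.4 in repressive cells, was at 219.8 ± 12.3 in parental and 54.8 ± 18.3 in activating cells. NME7 was at 95.2 ± 8.89 and 24.7 ± 8.84 in these 2 lines. Without induction HRNR and FLG had means of 636 ± 92.2 and 341 ± 32.5 in parental cells, against 364 ± 34.7 and 109.9 ± 17.1 in neutral ones, a difference that was not tested.

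Exact copies of the palindrome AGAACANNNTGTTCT, searched in GRCh37, numbered 565, and 14633 more sites differed at 1 of the 12 fixed bases. The pattern reads the same on both strands, so each site was counted once. An exact site lay within 50 kb of the start of 1 of 78 annotated lower features (1.28%, exact 95% interval 0.0325% to 6.94%), 1 of 49 higher ones (2.04%, 0.0517% to 10.9%) and 67 of 3822 tested ones (1.75%). Allowing 1 mismatch, the shares were 35.9% (25.3% to 47.6%), 28.6% (16.6% to 43.3%) and 31.1%. Within 10 kb and with 1 mismatch they were 8.97% (3.68% to 17.6%), 8.16% (2.27% to 19.6%) and 6.49%. In each case the interval held the share of all tested features, so no excess of sites near the changed features was detectable with these numbers of features.

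Sites within 10 kb of the start of a lower feature are shown for 3 of them to give their sequence context, with the 15-base site in capitals and 7 flanking bases on each side. All coordinates are GRCh37.
LTBR (chr12:6485484-6485498, plus strand): gggccctAGGACATTCTGTTCTtttttac
ELOVL5 (chr6:53221570-53221584, plus strand): gtgacttAGAACAATATGTTCCttccttc
SMOX (chr20:4096941-4096955, plus strand): gctttctGGAACATGATGTTCTaggctca
The LTBR site lies 1280 bases from the LTBR start, in an intron of LTBR and of SCNN1A, and differs from the palindrome by A3G. The ELOVL5 site is 7600 bases away in sequence with no annotated gene and differs by T15C. SMOX, spermine oxidase, fell from 272 ± 3.34 to 166 ± 24.6 (log2 fold change -0.72 ± 0.108 (SE), adjusted p = 0.000284), and its site, 4679 bases away and also intergenic, differs by A1G. Under vehicle the SMOX difference was -0.29 and not called, and its interaction was not called (adjusted p = 0.206). Positions count from 1 at the 5′ end of the site. No match was taken as a bound site.

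In the RefSeq promoter windows, from 250 bases before to 50 after the start (GRCh38.p14), the core AGAACA on either strand was found in 14.9% of all 27305 windows. It was found in 9.44% of the 2414 tested features with a window, in 5 of 45 lower features and in 0 of 24 higher ones. The remaining 36 lower and 27 higher features had no window by symbol and were not searched.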

How the data were processed

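RNA was profiled from LNCaP lines with the Illumina Stranded mRNA kit. The authors ran nf-core/rnaseq on GRCh37 and Salmon 1.9.0 (both per the submitters' processing notes and the study's methods) and deposited estimated counts per gene for 57773 genes, not normalized. The annotation release and strand setting are not given in the sources used here. The study tested with DESeq2 1.28.0. Here counts were rounded (1.06% of values were not whole), and edgeR's filterByExpr, given the 8 groups, left 3985 features. Libraries were scaled by TMM, and edgeR 4.0.16 in R 4.3.3 (estimateDisp and glmQLFit with the robust option, glmQLFTest) compared 4 against 4 libraries under tamoxifen and under vehicle, with the interaction over 16. Benjamini-Hochberg adjusted p under 0.05 made a call. Replicates are labelled biological, and no more is said of their source.

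Gene positions and opposite-strand exons came from GENCODE lifted to GRCh37, in which 96.1% of the genes were found. Features named were the 8 highest and 8 lowest called ones averaging 50 counts or more whose groups were separate, 6 and 6 of those without exon overlap at 20 counts (3 and 8 were eligible), a fixed set of 12 genes, and up to 4 called members, the most abundant, of each of 22 lists. The comparison, lists and names were chosen with earlier results of these data known. Other names were chosen after their values were seen. Some features that met the rule are not reported here. Intervals and floors cover counting error only. On simulated counts for the tamoxifen comparison, over 3985 features, 66 of 100 features changed by 1 on the log2 scale and 91 of 100 changed by 2 were called, with 12 false calls and 0 in the wrong direction. Replicate pairs differed by more than counting noise (chi-square per gene 1.53 to 32.9 over 24 pairs). Alternatives were DESeq2 1.42.0, its size factors, other filters, a fit over all 32 libraries, a fit without mitochondrial features, a replicate block and leaving out each library.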

Additional observations from a re-analysis of the deposited data

Results flagged for a closer look

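The interaction was called by edgeR for 22 of the 34 tested features chosen by rule, and for 135 of all 3985 features (3.39%). Most of the 34 were chosen by their difference in the same tamoxifen libraries, so the count is no independent support. The tested quantity is the line difference under tamoxifen minus that under vehicle, on the log2 scale. It was negative for RP5-1120P11.1 (-4.09, adjusted p = 6.43e-06), FLG (-3.28, adjusted p = 2.29e-07), HRNR (-2.68, adjusted p = 3.26e-07), RP11-1151B14.4 (-2.16, adjusted p = 9.47e-07), GLYATL1P2 (-1.86, adjusted p = 0.000325), KLK3 (-1.71, adjusted p = 0.0188) and CMC2 (-1.70, adjusted p = 0.00166). It was also negative for CT62 (-1.49, adjusted p = 4.55e-06), NFRKB (-1.48, adjusted p = 0.0233), MT-ND4 (-1.30, adjusted p = 0.0169), LTBR (-1.20, adjusted p = 2.29e-07), CTD-2325A15.5 (-1.05, adjusted p = 0.00112) and BX842568.2 (-0.87, adjusted p = 0.00434). It was positive for RP11-816J6.3 (1.49, adjusted p = 0.0299), NME7 (1.12, adjusted p = 0.000944), HOXB13 (1.10, adjusted p = 0.0274), RP11-344B2.2 (0.98, adjusted p = 0.00678), ST7-AS1 (0.95, adjusted p = 0.000237), RP11-362K14.5 (0.93, adjusted p = 2.1e-07), H2AFY (0.81, adjusted p = 0.000268), PTMS (0.60, adjusted p = 0.0243) and NCAPD2 (0.60, adjusted p = 0.0124). For MT-ND4 and HOXB13 the line difference under tamoxifen was itself not called.

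The level of LTBR in repressive tamoxifen replicate 2 (244 CPM) stood below the other 3 libraries of its group (262 to 266) by a gap that is large against the group's narrow range. It was the 1 such case in 67 groups of 4 examined, where chance gives about 1 in 20.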

How the results depend on the processing

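The count of 132 features under tamoxifen ran from 98 to 171 when a neutral library was left out and from 92 to 118 when a repressive one was, 92 to 171 in all, and from 91 to 175 over the other alternatives on the full set. DESeq2's test called 100, of which 98 were shared, and leaving out the 2 pseudogene features, chosen after seeing the data, 129. Restricting the fit to features without exon overlap left 902 to test and called 25 under tamoxifen, 33 under vehicle and 36 in the interaction. The fit over all 32 libraries called 175 features under tamoxifen (53 higher and 122 lower) and 50 under vehicle. The vehicle count of 93 ran from 47 (without repressive replicate 2) to 180 (without repressive replicate 1), with 52 and 56 without neutral replicates 2 and 3 and 61 without repressive replicate 4, and the interaction count of 135 from 90 to 145. The higher share of vehicle calls was 41.9%, but 57.6% without exon overlap and 59.4% without repressive replicate 1, and that of the interaction 45.2%, but 34.2% in the fit over all libraries.

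Same-numbered libraries did not deviate together under tamoxifen (correlations -0.24 to 0.00421). The highest values were at unlike numbers, 0.289 for neutral 4 with repressive 1 and 0.209 for neutral 1 with repressive 4. With 4 libraries a group, such correlations cannot settle whether libraries were paired. A replicate block gave 91, 34 and 111 calls under tamoxifen, under vehicle and in the interaction.

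Filtering over the fitted groups moved the medians of the androgen response by symbol to -0.15, of the KRAB cofactors by symbol to 0.040 and of the unfolded protein response on the other strand to -0.035. Among features without exon overlap, the androgen response and luminal medians were -0.88 and -0.77. Leaving out a library gave medians of -0.46 to -0.12 for the androgen response by symbol, 0.085 to 0.23 for G2 and M phase genes, -0.25 to 0.14 (the latter without neutral replicate 4) for S phase genes, 0.056 to 0.16 for KRAB cofactors on the other strand and -0.14 to -0.040 for sterol synthesis on the other strand. The share of lower features with an exact site within 50 kb was 0 with DESeq2's test, DESeq2 size factors, no exon overlap, the replicate block, the pseudogene features left out or a 10 kb window, 0 to 1.41% without 1 library, and 35.9% with 1 mismatch. The cause was not tested. Of 34 features chosen by rule under 17 alternatives, no direction reversed, 526 values kept their side of the threshold, 27 lost a call and 5 gained one. At 565168 to 1164808 counts per library, depth limits what can be said of genes with few counts such as FKBP5 and TMPRSS2.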
